A study of Homo sapiens with 90 samples.

Results

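Apolipoproteins, the lipid transfer protein of lipoprotein assembly and the enzyme of HDL (high density lipoprotein) maturation were followed across dose in HepG2, a human line established from a liver tumour. The genes were APOA1, APOA2, APOA5, APOB, APOC3, APOE, APOH, APOM, MTTP and LCAT, chosen by name. All probe sets annotated to exactly 1 of these symbols were taken, which gave 20 probe sets of 10 genes among 40914 probe sets of 19774 genes on the array. A total of 0 probe sets with several symbols held one of them.

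HepG2 cells were exposed for 24 hours to the triazole fungicide fenbuconazole, the imidazole fungicide imazalil, the chlorophenoxy herbicide 2,4-D or the DMSO vehicle. Each compound was given in that vehicle at 9 doses from 0.001 to 10 µM, each about 3 times the one below it, with 3 arrays per dose, and 3 DMSO arrays were common to all compounds. Values are log2 signals from Affymetrix HT HG-U133+ PM arrays, normalized by RMA (robust multi-array average) separately for each compound together with a copy of the DMSO arrays. A value was therefore read only against the DMSO columns of its own set, and the 3 comparisons at 10 µM share their DMSO arrays. All groups were the same cell line in multiwell plates, with no difference in genotype.

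The hepatocyte secretes triglyceride on very low density lipoprotein (VLDL), whose backbone is apolipoprotein B. Microsomal triglyceride transfer protein, encoded by MTTP, loads lipid onto apolipoprotein B in the endoplasmic reticulum. HDL is built around apolipoproteins A-I and A-II and matures in plasma when LCAT esterifies its cholesterol. HepG2 cells are widely used as a model of this secretion because they make most of these proteins.

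The labelled cell type was checked on its markers in DMSO. The 8 hepatocyte markers, each read by its brightest probe set, lay between 10.1 and 13.1 in the 3 sets, where the array medians were 2.95 to 3.15. The 6 mesenchymal markers lay between 2.07 and 4.28 and the 8 blood and endothelial markers between 2.57 and 3.66. At 10 µM against DMSO, 0 probe sets of the 3 marker lists passed an adjusted p of 0.05 for any compound in limma. An unadjusted p under 0.05 was found at 0 of 20 hepatocyte probe sets for each compound, at 1, 0 and 0 of 20 mesenchymal ones and at 1 of 17 blood and endothelial ones for each compound. Over all 40914 probe sets the shares were 4.4%, 5.44% and 4.07% for fenbuconazole, imazalil and 2,4-D. With adjustment they were 0.00978%, 0.0464% and 0%. In these bulk samples, fewer cells of a kind and less RNA per cell cannot be told apart. The labels do not say whether replicates came from separate cultures, so the p-values measure the spread between these samples, and 3 arrays per group limit the precision.

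APOM gave the largest difference among the 10 genes at 10 µM, when each was read by its brightest probe set (the one with the highest mean over all columns), for imazalil and for fenbuconazole. After imazalil its 2 probe sets read 0.74-fold and 0.765-fold of DMSO, but neither passed the adjusted threshold. APOM encodes apolipoprotein M, a lipocalin carried mainly on HDL that binds sphingosine-1-phosphate. For both fungicides the other 9 genes, read in the same way, lay closer to DMSO. A total of 0 of 20 probe sets passed an adjusted p of 0.05 at 10 µM for any compound. Across all 40914 probe sets, that threshold was passed by 0.00978% for fenbuconazole, 0.0464% for imazalil and 0% for 2,4-D.

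The bases just before the APOM start site are shown because APOM carries the main difference. The RefSeq promoter table (build GRCh38.p14) holds 1 start site for APOM, and the 250 bases before it, on the plus strand at chr6:31655644-31655893, read as follows with a forkhead core in capitals.
APOM: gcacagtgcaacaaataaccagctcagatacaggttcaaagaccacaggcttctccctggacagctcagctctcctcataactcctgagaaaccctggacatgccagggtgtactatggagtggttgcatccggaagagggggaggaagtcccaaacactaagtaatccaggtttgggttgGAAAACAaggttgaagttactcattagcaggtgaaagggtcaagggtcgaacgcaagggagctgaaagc
Forkhead factors such as FOXA2 are known regulators of hepatic genes, and the core searched was TGTTTNC on both strands. The 1 match lay on the opposite strand at 69 to 63 bases before the start site. The same core was found in 15.5% of all 35116 windows of this length, so the match is a description of the letters only. The half-sites GTTAAT of HNF1 and AGGTCA of nuclear receptors, searched in the same way, occurred in 6.23% and 12.1% of all windows and not in that of APOM. Only these exact letters were searched. The APOM window does hold gttact and gggtca, near spellings of these half-sites, so the lack of an exact match does not show that such sites are absent.

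With imazalil at 10 µM, APOM probe set 214910_PM_s_at read 9.38, 9.51 and 9.20, against 9.77, 10.03 and 9.59 in DMSO. Its second probe set, 205682_PM_x_at, read 9.06, 9.17 and 8.72 at 10 µM, against 9.39, 9.49 and 9.23 in DMSO. At both probe sets every 10 µM array lay below every DMSO array. The log2 difference was -0.43 at 214910_PM_s_at (95% interval -0.65 to -0.22, 0.74-fold), with an unadjusted p of 0.000362 and an adjusted p of 0.285 in limma. At 205682_PM_x_at it was -0.39 (-0.59 to -0.18, 0.765-fold), with an unadjusted p of 0.000707 and an adjusted p of 0.382. The suffix x_at marks a probe set whose probes may also match other transcripts.

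With fenbuconazole at 10 µM, 214910_PM_s_at read 9.32, 9.67 and 9.54, against 9.72, 9.99 and 9.57 in DMSO, and the groups overlapped. At 205682_PM_x_at the arrays read 9.08, 9.24 and 9.14 at 10 µM, against 9.40, 9.45 and 9.26 in DMSO, with no overlap. The log2 differences were -0.25 (-0.48 to -0.01) and -0.21 (-0.44 to 0.01), with unadjusted p of 0.0414 and 0.0588 and an adjusted p of 0.999 for both. These values do not separate fenbuconazole from DMSO after adjustment. The interval at 214910_PM_s_at ended just below 0, and that at 205682_PM_x_at included 0.

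With 2,4-D at 10 µM, 214910_PM_s_at read 9.56, 10.01 and 9.55, against 9.78, 10.05 and 9.64 in DMSO. At 205682_PM_x_at the arrays read 9.34, 9.56 and 9.18 at 10 µM, against 9.48, 9.57 and 9.36 in DMSO. Both groups overlapped at both probe sets. The log2 differences were -0.12 (-0.39 to 0.15) and -0.11 (-0.34 to 0.12), with an adjusted p of 1 for each.

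**Figure D1:**
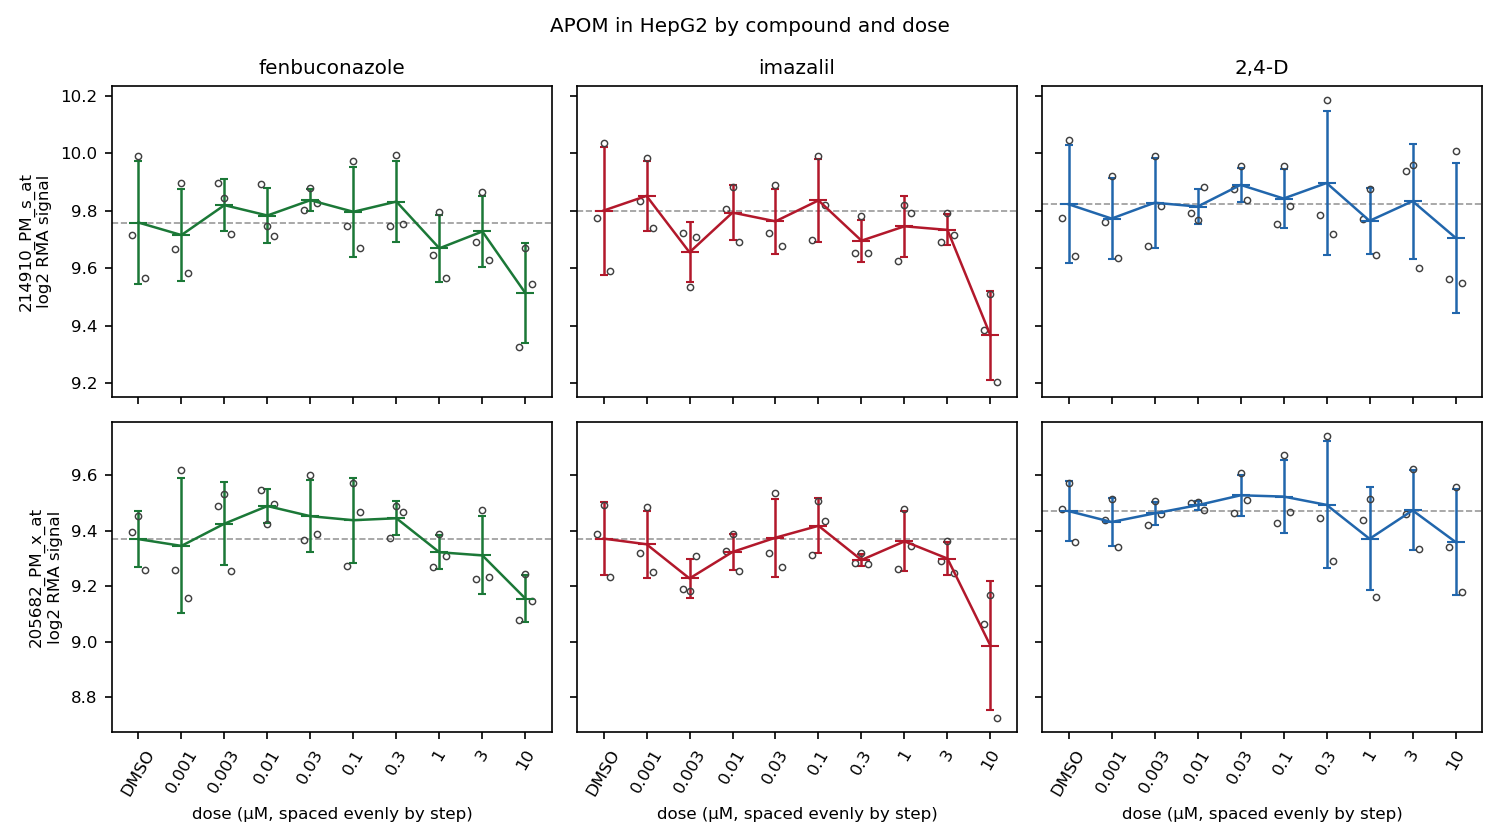
APOM signal (log2, y axis) by dose (x axis, DMSO at the left, doses in µM spaced evenly by step) for fenbuconazole, imazalil and 2,4-D, with one row of panels per probe set. Open circles are single arrays, the line joins group means, bars are 1 SD of 3 arrays and the dashed line is the DMSO mean, the imazalil mean at 10 µM is 9.37 in the upper row, below every other imazalil group.

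The lower doses showed how far APOM moved without the highest dose. For imazalil, the 8 lower doses gave log2 differences from DMSO between -0.15 (at 0.003 µM) and 0.05 (at 0.001 µM) at 214910_PM_s_at, and 3 µM gave -0.07 (-0.28 to 0.15). For fenbuconazole the 8 lower doses lay between -0.09 (at 1 µM) and 0.08 (at 0.03 µM). For 2,4-D they lay between -0.06 (at 1 µM) and 0.07 (at 0.3 µM). The lowest group mean of all doses was that of 10 µM for each compound at 214910_PM_s_at, and the imazalil mean of 9.37 ± 0.16 stood apart from the 9.73 ± 0.05 at 3 µM (SD, n = 3 each).

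The 3 lowest doses give a second reference of 9 arrays, and the difference from it does not use the DMSO arrays. The DMSO arrays still entered the estimate of the spread and the normalization. The 10 µM arrays are the same as in the comparison with DMSO. In the imazalil set, 214910_PM_s_at averaged 9.37 at 10 µM and 9.77 over the 3 lowest doses, and 205682_PM_x_at averaged 8.99 and 9.30. The 3 arrays at 10 µM lay narrowly below all 9 low-dose arrays at both probe sets, whose lowest values were 9.53 and 9.18. How many of all probe sets were separated in this way was not counted, so this is a description only. The log2 difference was -0.40 at 214910_PM_s_at (-0.58 to -0.22), with an unadjusted p of 8.92e-05 and an adjusted p of 0.0637. At 205682_PM_x_at it was -0.32 (-0.48 to -0.15, adjusted p = 0.247). The call at 214910_PM_s_at depends on the fit: a trended robust variance gave an adjusted p of 0.00654 and testing 1 probe set per gene gave 0.0362, while the array interquartile range as a covariate gave 0.113. In the fenbuconazole set the differences were -0.26 (-0.45 to -0.07) and -0.26 (-0.45 to -0.08), with adjusted p of 0.762 and 0.67. In the 2,4-D set they were -0.10 (-0.32 to 0.12) and -0.10 (-0.29 to 0.08), with an adjusted p of 1 for each.

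In this comparison 0 of 20 probe sets passed the adjusted threshold for any compound, against 0.0318% of all probe sets for fenbuconazole, 0.122% for imazalil and 0% for 2,4-D. An unadjusted p under 0.05 was found at 2 of 20 for fenbuconazole and 2 of 20 for imazalil, in each case the APOM probe sets, where 5.23% and 6.62% of all probe sets had one. For 2,4-D it was found at 3 of 20, which were 1 of APOB and the 2 of APOA5 with opposite signs, against 4.28% of all probe sets. At 10 µM against DMSO an unadjusted p under 0.05 was found at 1 probe set for fenbuconazole, 2 for imazalil and 0 for 2,4-D, against 4.4%, 5.44% and 4.07% of all probe sets. The members' counts rest on APOM alone for both fungicides, and its 2 probe sets measure 1 transcript on the same arrays. The array interquartile range at 10 µM was 3.07 ± 0.02 after imazalil and 3.01 ± 0.08 in DMSO (SD, n = 3 each), and with it as a covariate the APOM differences from DMSO after imazalil were -0.41 and -0.36.

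Slopes per 10-fold dose, fitted to the 27 treated arrays of a compound, were negative for APOM with each compound. For APOM after imazalil the log2 slope was -0.06 at 214910_PM_s_at (-0.11 to -0.02, unadjusted p = 0.00776 and adjusted p = 0.567 in limma) and -0.04 at 205682_PM_x_at (-0.09 to 0.00). After fenbuconazole the slopes were -0.04 (-0.09 to -0.00) and -0.05 (-0.09 to -0.01), with adjusted p of 0.798 and 0.771. After 2,4-D they were -0.01 (-0.06 to 0.03) and -0.02 (-0.06 to 0.02). The slope passed the adjusted threshold at 0 of 20 probe sets for each compound, against 0.00978% for fenbuconazole, 0.0318% for imazalil and 0% for 2,4-D over all probe sets. An unadjusted p under 0.05 was found at 2, 2 and 1 of 20 for fenbuconazole, imazalil and 2,4-D, against 6.07%, 6.44% and 4.82% of all probe sets. Those probe sets were both of APOM for fenbuconazole, 1 of APOM and 1 of APOC3 for imazalil, and 1 of APOB for 2,4-D.

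An F test over the 9 doses against DMSO called 0 of 20 probe sets for each compound, against 0.00733% of all probe sets for fenbuconazole, 0.0244% for imazalil and 0% for 2,4-D. An unadjusted F p under 0.05 was found at 0, 2 and 0 of 20 for the same compounds, against 3.47%, 4.44% and 5.13% of all probe sets. The lowest unadjusted F p among the members was that of APOM 214910_PM_s_at for imazalil, 0.00621, with an adjusted p of 0.993.

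Differences between compounds were tested at the matched dose of 10 µM for the 3 pairs, on values centred on the DMSO mean of each set. Imazalil minus 2,4-D at APOM was a log2 difference of -0.32 at 214910_PM_s_at (-0.54 to -0.09, unadjusted p = 0.0062, adjusted p = 0.484 in limma) and -0.27 at 205682_PM_x_at (-0.49 to -0.06, adjusted p = 0.544). Imazalil minus fenbuconazole was -0.19 (-0.41 to 0.04) and -0.17 (-0.39 to 0.04), and fenbuconazole minus 2,4-D was -0.13 (-0.35 to 0.10) and -0.10 (-0.32 to 0.11). The imidazole and the triazole were thus not separated at APOM, and their intervals leave room for a difference of up to -0.41. Among all members 0 of 20 passed the adjusted threshold in each pair, against 0.0318% of all probe sets for imazalil minus fenbuconazole, 0.127% for imazalil minus 2,4-D and 0.0513% for fenbuconazole minus 2,4-D. An unadjusted p under 0.05 was found at 1, 3 and 0 of 20, where 10.5%, 7.42% and 6.28% of all probe sets had one.

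**Figure D2:**
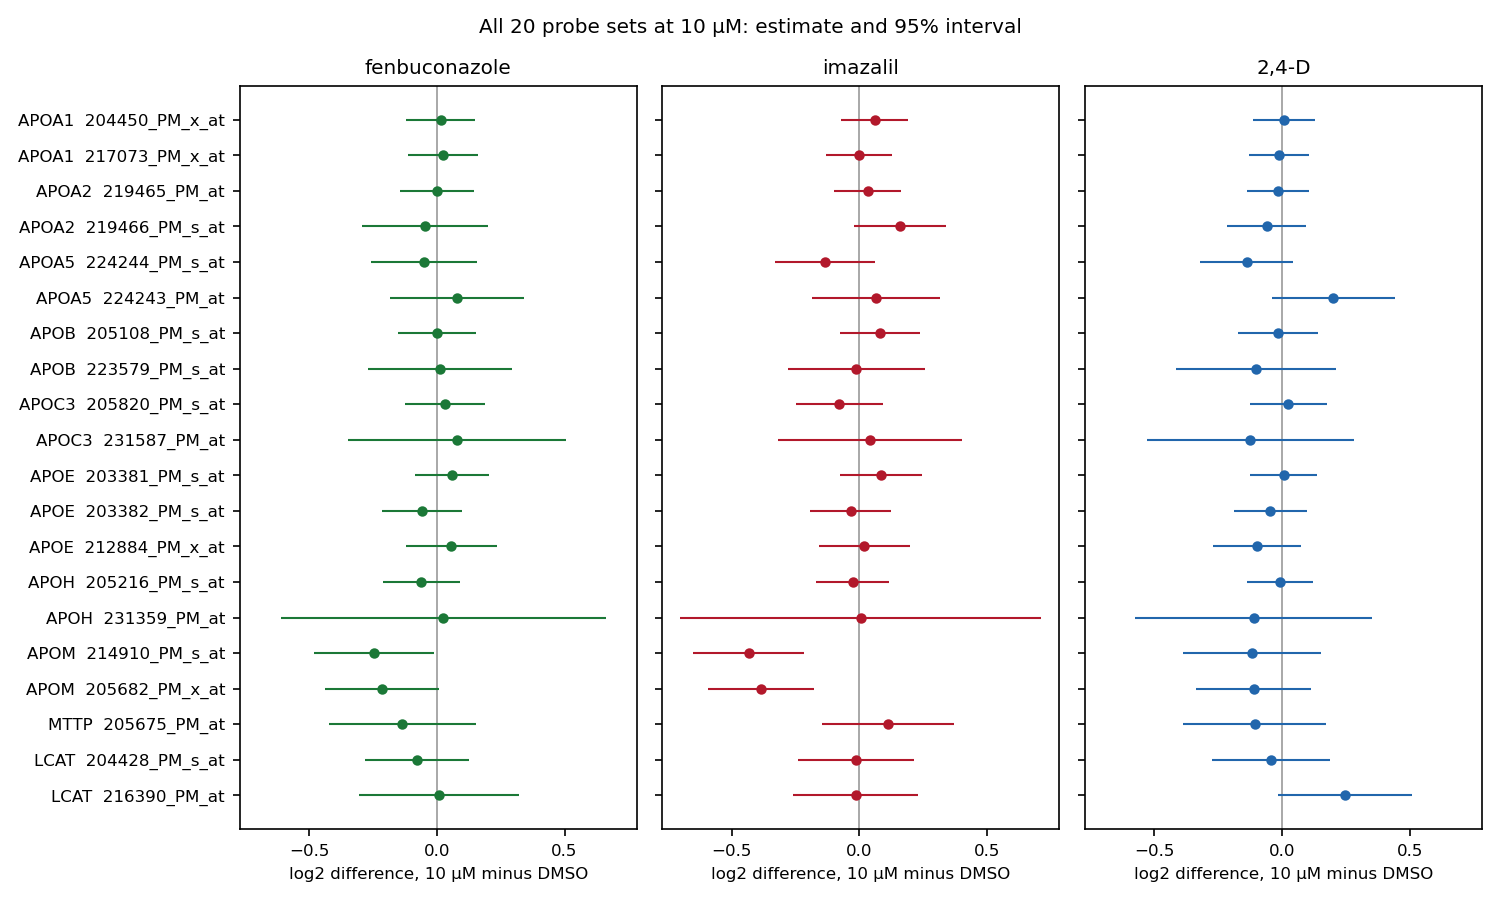
Log2 difference of 10 µM minus DMSO (x axis) for all 20 probe sets (y axis, gene and probe set) in 3 panels by compound, points are limma estimates and bars 95% intervals. Only the APOM rows for imazalil, at -0.43 and -0.39, have intervals that lie well clear of 0.

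Intervals at 10 µM were narrow enough to bound most members. The 95% interval lay wholly between 0.8-fold and 1.25-fold of DMSO for 13 of 20 probe sets after fenbuconazole, 13 after imazalil and 12 after 2,4-D. The median log2 difference over the 10 genes, each by its brightest probe set, was -0.02 for fenbuconazole, 0.01 for imazalil and -0.02 for 2,4-D, beside -0.00, -0.00 and 0.00 over all 19774 genes. The arrays at 10 µM and in DMSO did not overlap at 1 of 20 probe sets for fenbuconazole, 4 for imazalil and 0 for 2,4-D, where 8.99%, 12.2% and 7.03% of all probe sets did not.

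The backbone and the lipid loader of VLDL lay close to DMSO at 10 µM. APOB probe set 205108_PM_s_at gave log2 differences of 0.00 (-0.15 to 0.15) after fenbuconazole, 0.08 (-0.08 to 0.24) after imazalil and -0.02 (-0.17 to 0.14) after 2,4-D. MTTP, with 1 probe set, read 8.38, 8.47 and 8.40 after imazalil, against 8.55, 8.34 and 8.03 in DMSO, so that the DMSO arrays spread wider than the treated ones. Its log2 differences were -0.14 (-0.42 to 0.15) for fenbuconazole, 0.11 (-0.15 to 0.37) for imazalil and -0.11 (-0.39 to 0.17) for 2,4-D.

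The second APOB probe set, 223579_PM_s_at, had the lowest unadjusted p of the members for 2,4-D in the slope (unadjusted p = 0.0117, adjusted p = 0.998 in limma) and against the 3 lowest doses. It read 9.77, 9.46 and 9.90 at 10 µM, against 9.76, 9.76 and 9.92 in DMSO, and averaged 10.04 over the 9 arrays of the 3 lowest doses. Against those doses the log2 difference was -0.32 (-0.58 to -0.07, unadjusted p = 0.0151 in limma), and against DMSO it was -0.10 (-0.41 to 0.21). The other APOB probe set gave -0.10 (-0.23 to 0.03) against the 3 lowest doses. The adjusted p was 1 for all of these log2 differences.

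The main proteins of HDL also lay close to DMSO. APOA1, read by 204450_PM_x_at, gave log2 differences of 0.01 (-0.12 to 0.15) after fenbuconazole, 0.06 (-0.07 to 0.19) after imazalil and 0.01 (-0.11 to 0.13) after 2,4-D. The second APOA1 probe set, 217073_PM_x_at, gave values from -0.01 to 0.02. APOA2, read by 219465_PM_at, gave -0.00 (-0.15 to 0.14), 0.03 (-0.10 to 0.16) and -0.02 (-0.14 to 0.11) for the same compounds. The second APOA2 probe set, 219466_PM_s_at, read 12.68, 12.74 and 12.88 after imazalil, against 12.62, 12.60 and 12.60 in DMSO, with no overlap. Its log2 difference there was 0.16 (-0.02 to 0.34, adjusted p = 0.936), and imazalil minus 2,4-D was 0.22 (0.02 to 0.41, adjusted p = 0.623). The SD of this probe set was 0.11 at 10 µM, against 0.01 among the DMSO arrays.

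LCAT, the plasma enzyme that esterifies HDL cholesterol, read 6.16, 6.51 and 6.34 at 204428_PM_s_at after imazalil, against 6.28, 6.34 and 6.44 in DMSO. Its log2 differences were -0.08 (-0.28 to 0.13) after fenbuconazole, -0.01 (-0.24 to 0.21) after imazalil and -0.04 (-0.27 to 0.19) after 2,4-D. The second LCAT probe set, 216390_PM_at, averaged 2.86 to 3.02 in the DMSO groups, at or below the array medians, where no level of the gene can be read.

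Apolipoproteins that act on triglyceride clearance showed small values of both signs. APOC3, an inhibitor of lipoprotein lipase, gave 0.03 (-0.12 to 0.19) after fenbuconazole, -0.08 (-0.25 to 0.09) after imazalil and 0.02 (-0.13 to 0.18) after 2,4-D at 205820_PM_s_at. Its imazalil slope was -0.03 per 10-fold dose (-0.06 to -0.00, adjusted p = 0.75), with a group mean of 10.29 at 0.001 µM and 10.05 at 10 µM. The second APOC3 probe set, 231587_PM_at, averaged 3.30 to 3.46 in the DMSO groups, just above the array medians, and gave intervals as wide as -0.53 to 0.28 after 2,4-D. At the lower doses, an unadjusted p under 0.05 was found only for APOC3 at 0.003 µM 2,4-D. The log2 difference there was 0.16 (0.01 to 0.31), with an unadjusted p of 0.0407 in limma.

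APOA5, a liver protein that promotes lipolysis of plasma triglyceride, had probe sets that disagreed. After 2,4-D at 10 µM, 224244_PM_s_at read 6.91, 7.09 and 6.96, against 7.11, 7.27 and 7.00 in DMSO. The other, 224243_PM_at, read 4.69, 4.54 and 5.16, against 4.40, 4.77 and 4.62 in DMSO. The log2 differences were -0.14 (-0.32 to 0.04) and 0.20 (-0.04 to 0.44), of opposite sign. The value at 224243_PM_at rests on 1 array, since it was 0.02 without 10 µM replicate 3, and 0.42 without replicate 2 of every group. After imazalil the log2 differences were -0.13 (-0.33 to 0.06) at 224244_PM_s_at, the largest of the 10 genes there after that of APOM, and 0.07 (-0.19 to 0.32) at 224243_PM_at. After fenbuconazole they were -0.05 (-0.26 to 0.16) and 0.08 (-0.18 to 0.34), so that the signs were opposite with each compound. Over the 81 treated arrays, each set centred, the values of these probe sets correlated with an r of 0.09, as a description. No direction is given for APOA5 after any compound.

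APOE, a ligand of lipoprotein receptors, was measured by 3 probe sets whose 9 log2 differences at 10 µM lay between -0.10 and 0.08. At 203381_PM_s_at it gave 0.06 (-0.09 to 0.20) after fenbuconazole, 0.08 (-0.08 to 0.25) after imazalil and 0.01 (-0.13 to 0.14) after 2,4-D. APOE 203382_PM_s_at after imazalil was among the 4 probe sets without overlap, at 10.63, 10.63 and 10.59, against 10.65, 10.65 and 10.65 in DMSO, a log2 difference of only -0.03 (-0.19 to 0.12). APOH, beta-2-glycoprotein I, gave -0.06 (-0.21 to 0.09), -0.03 (-0.17 to 0.12) and -0.01 (-0.14 to 0.12) for fenbuconazole, imazalil and 2,4-D at 205216_PM_s_at. The second APOH probe set, 231359_PM_at, scattered most of all members, with a pooled SD within groups of 0.47 in the imazalil set, so that its interval after imazalil ran from -0.70 to 0.71.

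The first probe sets of APOA1, APOA2, APOB and APOH read between 12.5 and 12.9 in DMSO, near the highest values on the arrays, 13.56 to 13.62 in the 3 sets. Whether signals this high compress differences was not tested.

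**Figure D3:**
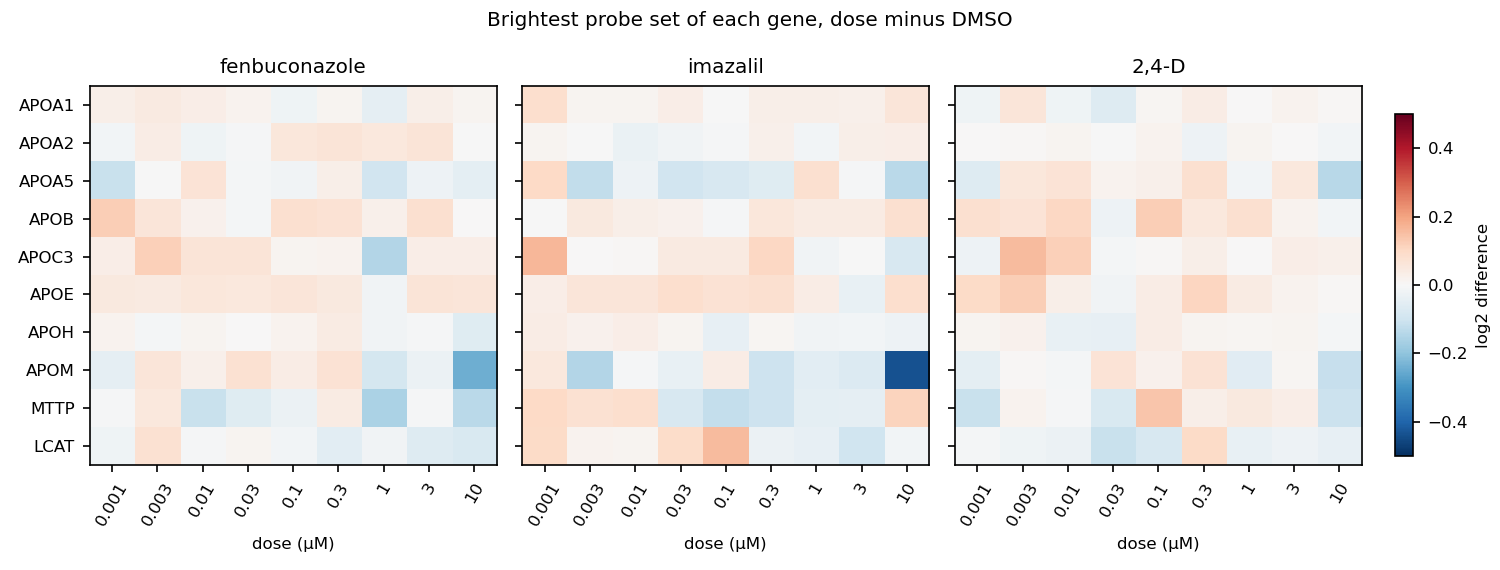
Log2 difference of each dose minus DMSO (colour, red above and blue below 0, scale from -0.5 to 0.5) for the 10 genes (rows, brightest probe set) by dose in µM (x axis), in 3 panels by compound. The darkest blue cell is APOM at 10 µM imazalil, -0.43, and most other cells are close to white.

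At the 8 lower doses together, 0 of 480 member values passed the adjusted threshold, where 0%, 0.000306% and 0.000306% of all values did for fenbuconazole, imazalil and 2,4-D. An unadjusted p under 0.05 was found at 0, 0 and 1 of 160 member values for the same compounds, against 3.08%, 3.69% and 4.33% of all values. Among the brightest probe sets of each gene, the lower doses gave log2 differences from -0.16 (MTTP at 1 µM fenbuconazole) to 0.17 (APOC3 at 0.001 µM imazalil).

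The members shared little of their variation over dose groups. Over the 27 treated dose groups, each set centred on its treated arrays, the 45 pairs of genes had Pearson r from -0.29 to 0.59 with a median of 0.21. They are a description, since groups of a set share normalization and array quality. The highest was that of APOA5 and APOM (r = 0.59), followed by APOA1 and APOC3 (r = 0.57) and APOH and MTTP (r = 0.51). MTTP also followed the arrays' interquartile range (r = 0.63), as did APOB (r = 0.54), while APOM had r = -0.34. The 2 probe sets of APOM tracked each other over the 81 treated arrays with r = 0.89, above the r of 0.42 to 0.59 for those of APOA1, APOA2, APOB and APOE. Those of APOA5 (r = 0.09), APOH (r = 0.07), APOC3 (r = 0.03) and LCAT (r = -0.08) did not track each other.

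The genes outside the list whose dose group means were most like those of APOM, by Pearson r over the 27 treated groups among 19764 genes, were TXNIP (r = 0.88) and ADH6 (r = 0.87). TXNIP, thioredoxin-interacting protein, averaged 7.78 ± 0.21 after imazalil at 10 µM and 8.63 ± 0.02 in DMSO (SD, n = 3 each), a log2 difference of -0.85 (-1.05 to -0.66, adjusted p = 1.68e-05 in limma). It averaged 8.20 ± 0.21 after fenbuconazole and 8.67 ± 0.02 in DMSO (-0.48, adjusted p = 0.173), and 8.66 ± 0.14 after 2,4-D and 8.76 ± 0.03 in DMSO (-0.10, adjusted p = 1). ADH6, an alcohol dehydrogenase of liver, gave -0.34 (-0.52 to -0.15, adjusted p = 0.424) after imazalil, -0.21 (-0.41 to -0.00) after fenbuconazole and -0.04 (-0.22 to 0.14) after 2,4-D. TXNIP differed between compounds at 10 µM by -0.75 for imazalil minus 2,4-D (-0.94 to -0.57, adjusted p = 2.67e-07), by -0.38 for imazalil minus fenbuconazole (-0.56 to -0.19, adjusted p = 0.136) and by -0.38 for fenbuconazole minus 2,4-D (-0.56 to -0.19, adjusted p = 0.144). ADH6 gave -0.30 for imazalil minus 2,4-D (-0.47 to -0.12, adjusted p = 0.307). Both genes were picked for their likeness to APOM over groups that include 10 µM, so their direction is no independent support for that of APOM. Of the other members' closest genes, GPAM, which starts glycerolipid synthesis, was like APOB (r = 0.79), but its values followed the arrays' interquartile range with r = 0.78.

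The neighbouring genes of the pathway gave 0 calls at 10 µM in the 5 further lists, for each compound. Of 16 other apolipoproteins, 10 were lower and 6 higher than DMSO after fenbuconazole, 11 lower and 5 higher after imazalil, and 13 lower and 3 higher after 2,4-D, with median log2 differences of -0.02, -0.05 and -0.06. SAA4, a constitutive serum amyloid A carried on HDL, had the smallest unadjusted p of that list after imazalil, 6.75 ± 0.14 and in DMSO 6.42 ± 0.24 (SD, n = 3 each), a log2 difference of 0.33 (0.02 to 0.64, adjusted p = 0.906). It was the 1 of 32 probe sets with an unadjusted p under 0.05 after imazalil, and the other compounds also had 1 each, where 4.4%, 5.44% and 4.07% of all probe sets had one for fenbuconazole, imazalil and 2,4-D. After fenbuconazole it gave 0.27 (-0.01 to 0.54), against the same DMSO arrays. None of these directions holds after adjustment.

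Among the genes of VLDL assembly and secretion, 32 probe sets of 13 genes, an unadjusted p under 0.05 was found at 1 higher and 6 lower after imazalil, 1 higher after fenbuconazole, and 1 higher and 1 lower after 2,4-D. Over all probe sets, in either direction, it was found at 5.44%, 4.4% and 4.07% for these compounds in the same order. Read by the brightest probe set, 7 of the 13 genes were lower and 6 higher than DMSO after imazalil. Of the 6 lower probe sets, only those of PLA2G12B and AADAC were the brightest of their gene. That of AADAC had a DMSO mean of only 3.53, and the others were dimmer probe sets. The median log2 difference over the genes was -0.005 after imazalil, -0.006 after fenbuconazole and 0.005 after 2,4-D. PLA2G12B, a secreted phospholipase relative needed for VLDL lipidation in mice, read -0.31 after imazalil (-0.52 to -0.10, adjusted p = 0.733) at 231009_PM_at. DGAT1, which makes triglyceride, gave 0.24 after imazalil (0.07 to 0.41, adjusted p = 0.821) and 0.18 after fenbuconazole (0.00 to 0.36, adjusted p = 0.999). After 2,4-D the smallest p were at dimmer probe sets of TM6SF2 (234092_PM_s_at, -0.39, -0.69 to -0.10) and MIA3 (212310_PM_at, 0.39, 0.06 to 0.72), each with an adjusted p of 1. The brightest probe sets of these genes had the opposite sign, at 0.13 for TM6SF2 (233403_PM_x_at, 2.99 in DMSO, below the array medians) and -0.16 for MIA3 (212305_PM_s_at), so no direction is given for either.

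Genes of HDL formation and plasma remodelling had median log2 differences of -0.02, -0.02 and -0.01 for fenbuconazole, imazalil and 2,4-D over 10 measured genes. An unadjusted p under 0.05 was found at 0 of their 19 probe sets after fenbuconazole, 1 lower after imazalil, and 1 higher and 1 lower after 2,4-D. Beside this list, the receptors and the regulators, the shares over all probe sets were 4.4%, 5.44% and 4.07% for fenbuconazole, imazalil and 2,4-D. ANGPTL4, an inhibitor of lipoprotein lipase, was at -0.36 after imazalil (-0.66 to -0.07, adjusted p = 0.881). Of 5 measured lipoprotein receptors and their controls, LRP1 was at -0.41 after imazalil (-0.71 to -0.11, adjusted p = 0.85) and overlapped DMSO, and SCARB1, the HDL receptor, was at 0.15 after fenbuconazole (-0.02 to 0.32). LRP1 was the 1 of 16 receptor probe sets with an unadjusted p under 0.05 after imazalil, and the other compounds had 0. Of 15 measured regulators, 5 probe sets had an unadjusted p under 0.05 after imazalil, all higher, where fenbuconazole had 1 higher and 2,4-D 1 higher and 1 lower of 47. Those after imazalil included the coactivator PPARGC1A, at 5.32 ± 0.06 and in DMSO 4.99 ± 0.10 (SD, n = 3 each, log2 difference 0.34, 0.10 to 0.57, adjusted p = 0.8), and PPARA, a nuclear receptor of fatty acid metabolism, at 0.27 (0.05 to 0.49, adjusted p = 0.881). The brightest PPARA probe set, 223437_PM_at, was also among the 5, at 0.26, so these are not 5 separate genes. The others were CEBPA, at 0.20, and CREB3L3, at 0.30 from a DMSO mean of 2.92, below the array medians. A further PPARA probe set was at -0.29 after 2,4-D (-0.58 to -0.01, adjusted p = 1), while the brightest was at -0.03 there.

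**Figure D4:**
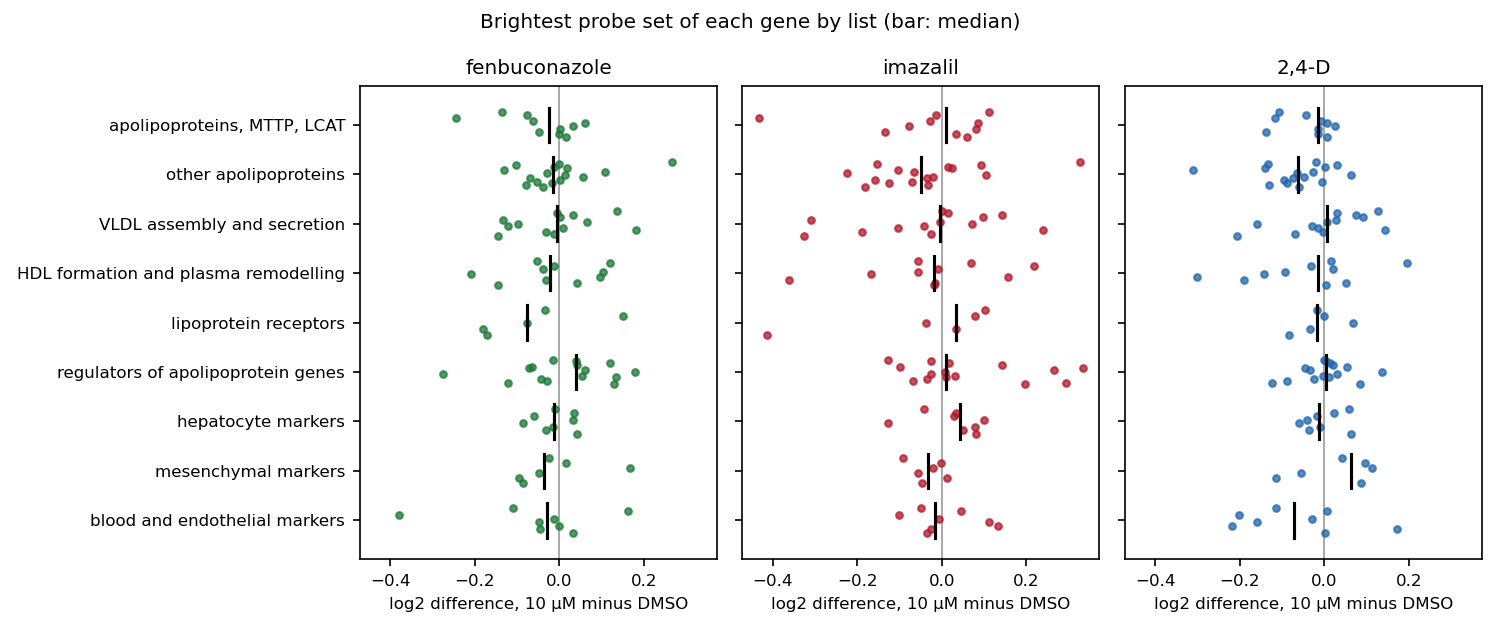
Log2 difference of 10 µM minus DMSO (x axis) for each gene by its brightest probe set (points), grouped by gene list (y axis) in 3 panels by compound, black bars are list medians. Medians lie between -0.08 and 0.06, and APOM after imazalil (-0.43) is the leftmost point of the first row.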

How the data were processed

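The members and the gene lists were chosen with earlier results of these data known. The 90 columns come from 84 arrays, since each compound's set of 30 holds a copy of the 3 DMSO arrays. The deposited values are log2 signals that the authors normalized by RMA within each set, per the labels. The submitters' processing notes name RMA and Partek, and no version is given in the sources used here. Of 54715 probe sets, 40914 with exactly 1 symbol were kept after 102 controls, 864 with several symbols and 12835 in no line of the platform's gene table were left out. All 10 members matched RefSeq by Entrez identifier.

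R 4.3.3 and limma 3.58.1 (lmFit, eBayes) were run on the 30 columns of a set with 1 mean per group. A slope used the 27 treated columns, and compounds were compared on DMSO-centred values. Tests were two-sided, with Benjamini-Hochberg adjustment over all 40914 probe sets at 0.05, and were tested on simulated data. All member probe sets are described. Of other lists, genes past the threshold at 10 µM or, failing that, among the smallest unadjusted p were named, and of the 2 genes most like each member, those of APOM and 1 of APOB. Alternatives covered the variance model, the replicate block, normalization, the probe sets tested and left-out arrays. The files name no genome build, so only the RefSeq promoter has coordinates.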

Additional observations from a re-analysis of the deposited data

Results flagged for a closer look

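TXNIP, named for its likeness to APOM, differed between compounds at 10 µM by a test of the difference itself: imazalil minus 2,4-D was -0.75 on the log2 scale (adjusted p = 2.67e-07 in limma), lower in 3 of 3 imazalil arrays than in any DMSO array. No member differed between compounds after adjustment, where the lowest adjusted p was 0.451.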

How the results depend on the processing

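The number of member probe sets past the threshold was 0 in 88 of 93 combinations of a comparison and an alternative. The exceptions were all APOM after imazalil: the 10 µM comparison with DMSO gave 1 with a trended robust variance (adjusted p = 0.0462), and 10 µM minus the 3 lowest doses gave 1 with the brightest probe set of each gene (fewer tests), 1 with probe sets above the median only (fewer tests) and 2 with a trended robust variance. With the replicate number as a block, that comparison gave 1 (APOM 214910_PM_s_at, adjusted p = 0.0129), and the block changed no other call. The numbers are not shown to pair the arrays: deviations of same-numbered 10 µM and DMSO arrays correlated from -0.13 to 0.40. Only in the 2,4-D set was every pair above 0.1, where the block left 0 calls. The highest r was that of the same number for every replicate in the 2,4-D set. This held for replicates 1 and 2 in the fenbuconazole set and for replicate 2 only in the imazalil set. With an array, or a replicate number in every group, left out, every comparison gave 0 to 0 member calls.

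The APOM difference after imazalil against DMSO ran from -0.54 to -0.32 (214910_PM_s_at) and from -0.48 to -0.26 (205682_PM_x_at) over the alternatives, and -0.26 was the value without 10 µM replicate 3. Its sign held in all of them. Of 927 values of the 60 member differences at 10 µM, 109 changed sign, all uncalled, and 3 did so by more than the replicate SD. These 3 came with an array, or a replicate number in every group, left out. LCAT 204428_PM_s_at after 2,4-D ran from -0.167 (without 10 µM replicate 2) to 0.116 (without replicate 3 of every group). APOC3 205820_PM_s_at after 2,4-D ran from -0.072 (without 10 µM replicate 2) to 0.097 (without replicate 1 of every group). LCAT 216390_PM_at after fenbuconazole ran from -0.186 (without 10 µM replicate 3) to 0.154 (without 10 µM replicate 2). The cause was not tested. For fenbuconazole the APOM ranges were -0.36 to -0.13 and -0.27 to -0.16, uncalled throughout. The uncalled APOM slopes after 2,4-D turned to 0.0089 and 0.0042 without replicate 3.

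Over all probe sets, calls at 10 µM against DMSO numbered 4 for fenbuconazole and 19 for imazalil. They numbered 14 and 36 with a trended robust variance, 9 and 29 with probe sets above the median only, 0 and 4 with the 2 groups compared alone, and 0 to 4 and 4 to 12 with arrays left out. Against the 3 lowest doses they numbered 13 and 50, with 26 and 70 by a trended robust variance, 22 and 65 above the median, 8 and 57 by joint normalization, and 0 to 1 and 5 to 10 without a replicate. For 2,4-D they numbered 0, with 1 at most when an array was left out and 4 against the 3 lowest doses by a trended robust variance.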
